A study of Mus musculus with 12 samples.

Results

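The 10 genes described here encode transcription regulators of blood stem and progenitor cells and of leukaemia: the RUNX factors Runx1, Runx2 and Runx3, their partner Cbfb, the inhibitors Id1, Id2 and Id3, and the factors Myb, Myc and Erg. They were taken by symbol from the 55376 genes in the count table, and all 10 had enough counts to be among the 11994 genes tested. RNA was measured in 12 libraries of cultured mouse cells. Their label is bone marrow progenitors with c-Kit and Sca-1 and without lineage markers (c-Kit+/Sca-1+/Lin-). The cultures as measured also held RNA of mast cell and mature myeloid markers, as given below. All cells were kept in SCF (100 ng/ml), IL-3 (20 ng/ml) and IL-6 (20 ng/ml), received a retroviral MSCV construct and were selected with geneticin. The 4 groups of 3 libraries were the empty MSCV vector with a control shRNA (sh#ctrl), NUP98-NSD1 with sh#ctrl, NUP98-NSD1 with shNizp1#1, and NUP98-NSD1 with shNizp1#2. NUP98-NSD1 joins a nucleoporin to a histone methyltransferase and occurs in acute myeloid leukaemia. Nizp1, listed under the symbol Zkscan17, is a zinc finger protein that binds NSD1, and the series asks how it bears on the genes controlled by the fusion. The fusion was expressed from a viral vector and the shRNAs from pLKO.1-puro constructs, all constitutively. The 3 replicates of a group came from separate experiments according to the series, which names no animals or clones.

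RUNX proteins bind DNA through a shared Runt domain, and CBFβ, the product of Cbfb, binds no DNA itself but raises their affinity and protects them from degradation. Runx1 is needed for the emergence of blood stem cells and is a frequent target of leukaemia translocations, Runx2 is best known as the master factor of bone formation, and Runx3 acts in lymphoid and myeloid cells. Id proteins lack a DNA-binding region and hold E proteins in inactive dimers. MYB and MYC drive the growth of immature blood cells, and ERG, an ETS factor, maintains stem cells.

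The start regions of the RUNX genes share a short sequence, which is shown here because the following results compare these genes. RefSeq windows from 250 bases before to 50 after an annotated start were searched (build GRCm38.p6, which is mm10). A pair of RUNX core motifs 2 bases apart lay in the distal windows of Runx1 and Runx3 and in the only window listed for Runx2. Capitals mark the motif ACCACA, searched on both strands (reverse TGTGGT), and each stretch is written 5′ to 3′ on the gene's strand.
Runx1: taaacaACCACAgaACCACAagttgg
Runx2: caaacaACCACAgaACCACAagtgcg
Runx3: ccctcaACCACAgaACCACAaggcca
Runx2 single site: gaggtcacaaACCACAtgattctgtc
These lie at chr16:92826027-92826052 on the minus strand for Runx1, chr17:44814585-44814610 on the minus strand for Runx2 and chr4:135120505-135120530 on the plus strand for Runx3. The pair begins 29 bases after the start site in Runx1, 24 bases after it in Runx2 and 134 bases before it in Runx3. Runx2 alone had one more copy, at chr17:44814692-44814717. The full pair ACCACAGAACCACA occurred in 4 of 32817 windows of 300 bases (0.0122%), those of the RUNX genes and of Gm16225, whose window overlaps that of Runx3 on the opposite strand. This string was read from the Runx1 window, so the match in Runx1 was fixed in advance. Pairs with other letters between the motifs were not counted. A single ACCACA occurred in 5500 windows (16.8%). Of the 10 genes, 8 had entries in that table, and no window of Cbfb, Id2, Id3, Myb or Erg, nor the proximal windows of Runx1 and Runx3, held these letters. A match is a description of sequence only, and no binding was measured.

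Totals ran from 3586538 to 6842589 counts per library, and a level of 3 counts equals 0.417 CPM in the deepest and 0.837 CPM in the shallowest library (CPM, scaled counts of a gene relative to the counts of all tested genes after TMM). Zkscan17 was at 63.1 ± 5.69 CPM (SD, n = 3) in empty-vector cells, 57.9 ± 7.42 in cells with the fusion and control shRNA, 30.5 ± 4.37 with shNizp1#1 and 24.5 ± 6.08 with shNizp1#2. Both knockdown groups lay below all control shRNA libraries, and Zkscan17 fell in the blocked test (adjusted p = 0.00198 and 2.90e-04) though not in the unblocked one (0.490 and 0.228). Nsd1 counts rose from 185 to 744 CPM with the fusion (adjusted p = 0.00375 without the block). They may include reads of the fusion construct, which carries NSD1 sequence, so a change of the Nsd1 gene itself cannot be told apart. The Nsd1 level was 894 CPM with shNizp1#1 and 700 CPM with shNizp1#2 (adjusted p = 0.357 between them with the block). All shNizp1#2 libraries lay below all shNizp1#1 libraries, as for 4.34% of tested genes. Libraries with the same replicate number resembled each other across genes, and adjusted p-values are given from edgeR's quasi-likelihood test both without and with the replicate number as a block. The labelled progenitor state was checked on 12 markers: Kit and Cd34 were abundant, Ly6a (the Sca-1 gene) ran from 23.8 to 277 CPM, and Hoxb5 had no count in either group with sh#ctrl. The 13 mast cell markers summed to between 42851 and 68567 CPM. In such bulk samples, fewer cells of a type and less RNA per cell cannot be told apart.

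Per kilobase of gene, which allows genes to be compared, Id2 stood highest at 257 ± 49.0 CPM per kilobase (SD over 12 libraries). Cbfb followed at 57.7 ± 8.69, then Myc at 43.6 ± 2.61, Runx1 at 38.0 ± 5.27, Myb at 33.3 ± 6.66, Runx3 at 32.5 ± 2.66 and Erg at 24.8 ± 5.35. Id3 at 11.5 ± 7.83, Id1 at 8.62 ± 8.96 and Runx2 at 3.07 ± 1.62 were lowest. Over the 12 libraries the range of Id2 lay apart from that of its neighbour in this order, with a lowest value (193) above the highest of Cbfb (67.1). The ranges of each other pair of neighbours overlapped. Myc varied least across the libraries, with a highest level 1.24 times its lowest, while Runx2 spanned 6.84-fold, Id1 45.1-fold and Id3 71.9-fold.

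**Figure D1:**
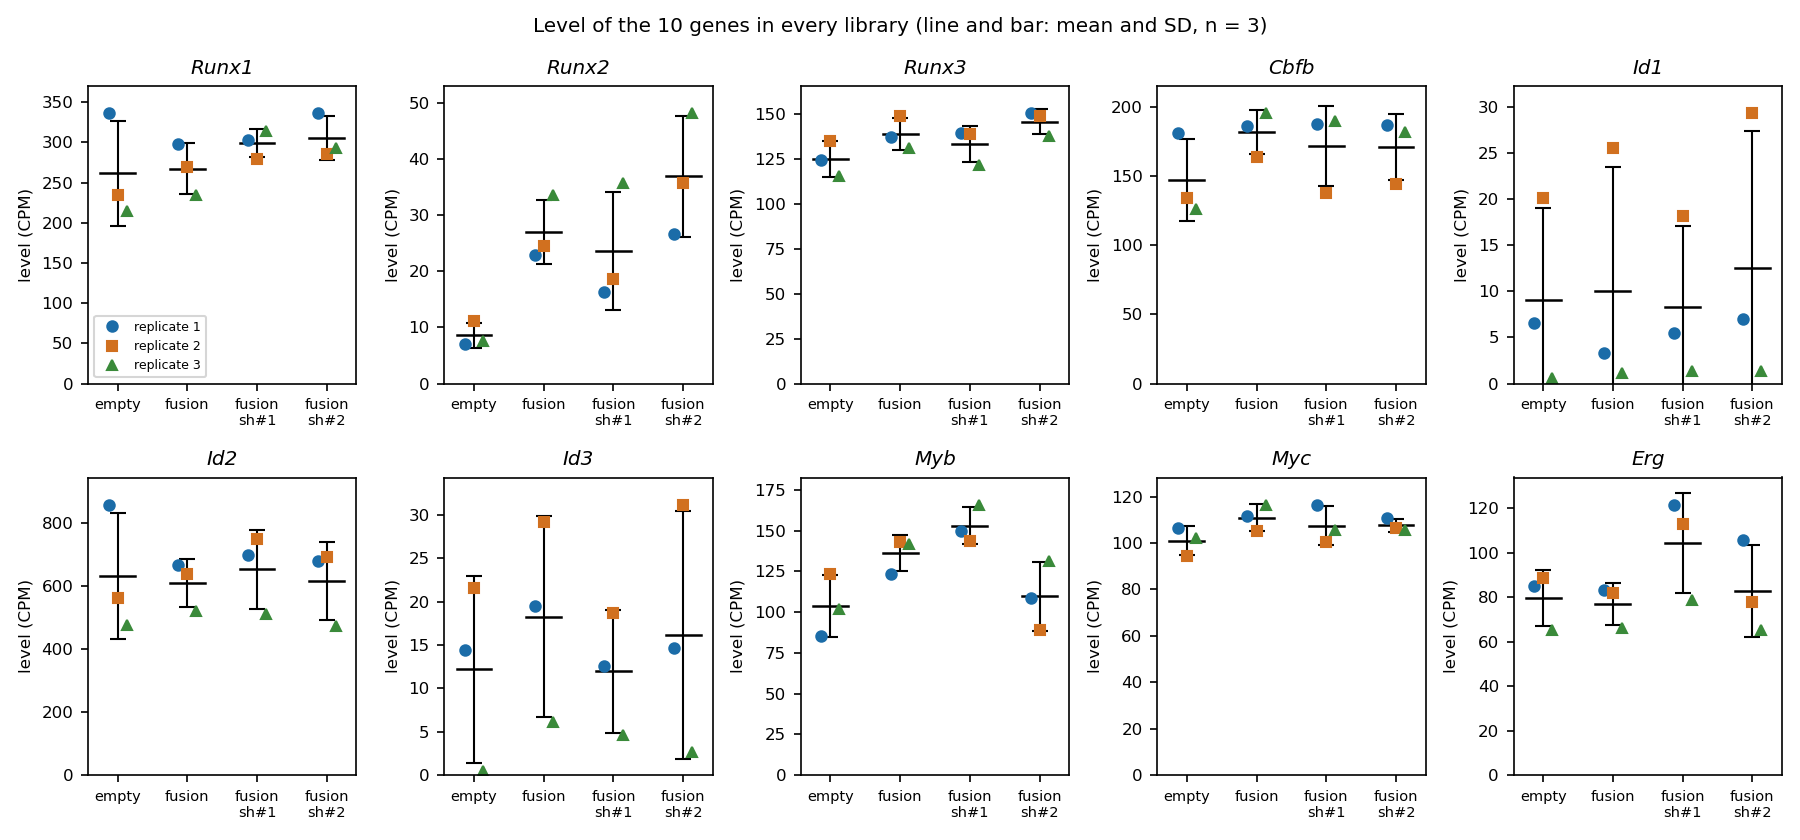
Level of each gene in CPM (linear axis from 0) in the 12 libraries, by group, with symbols for the replicate number and the mean and SD of each group (n = 3). SD bars of Id1 that reach below 0 end at the axis. Runx2 is low in all 3 empty-vector libraries (7.06 to 11.2 CPM) and higher in all libraries with the fusion, while Id1 separates by replicate number instead.

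Of the 10 genes, Runx2 differed most between the fusion and the empty vector. Its level was 7.06, 11.2 and 7.60 CPM in empty-vector replicates 1, 2 and 3, and 23.0, 24.6 and 33.6 CPM in fusion cells with sh#ctrl. The groups did not overlap, as was the case for 3.68% of the tested genes in that direction, and the lowest fusion library lay above the highest empty-vector one. The log2 fold change was 1.64 (SE 0.22, a 3.11-fold difference, higher in 3 of 3 same-numbered pairs) with the block, and Runx2 rose in that test (adjusted p = 0.00684). Without the block the log2 fold change from edgeR was 1.65, with no call (adjusted p = 0.9997), whereas DESeq2 without the block called Runx2 (1.66, adjusted p = 0.0140). That was the single call in 12 alternatives to this fit without the block, with adjusted p up to 0.9999. Over 11 fits with the block, Runx2 was called in 9, with adjusted p between 1.56e-13 and 0.25. The lowest value came without the filter on low counts, a fit that called 280 genes higher and 171 lower with the fusion. With the filter, edgeR with the block called 30 and 3. The call of Runx2 was lost without fusion replicate 3 (adjusted p = 0.0601) and without all libraries numbered 3 (adjusted p = 0.25, log2 fold change 1.42).

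The knockdown groups also held more Runx2 RNA than the empty-vector group, in a comparison added after the data were seen that shares the empty-vector libraries with the former. Levels were 16.4, 18.7 and 35.8 CPM with shNizp1#1 and 26.7, 35.9 and 48.3 CPM with shNizp1#2. Every one of these libraries lay above every empty-vector library, and the share of all tested genes that did so was not counted for these comparisons. With the block the log2 fold change over the empty vector was 1.43 with shNizp1#1 (adjusted p = 0.00320) and 2.07 with shNizp1#2 (adjusted p = 2.38e-04), against 1.38% and 1.55% of tested genes called higher. Neither passed without the block (adjusted p = 0.297 and 0.151). Against the fusion with the control shRNA, Runx2 had a log2 fold change of −0.21 with shNizp1#1 (SE 0.20, adjusted p = 0.745 with the block) and 0.43 with shNizp1#2 (SE 0.19, adjusted p = 0.421). Between the shRNAs it was higher with shNizp1#2 in 3 of 3 pairs, by a log2 fold change of 0.64 (SE 0.19), and did not pass the test (adjusted p = 0.102).

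Runx2 is a bone factor, so markers of stromal cells and osteoblasts were read beside it. Their 10 genes summed to between 0 and 6.53 CPM with the empty vector and between 1.37 and 2.98 CPM in fusion cells with sh#ctrl, and none had enough counts to be tested. Of the 10, 2 had no count with the empty vector, the osteoblast genes Sp7 and Bglap. In fusion cells with sh#ctrl 4 had none, these and Col3a1 and Pdgfra. Which cells held the Runx2 RNA was not tested. In the knockdown groups the 10 genes summed to between 1.39 and 2.85 CPM with shNizp1#1 and between 0.880 and 3.75 CPM with shNizp1#2. Bglap had counts with shNizp1#1 and Sp7 with shNizp1#2. The 12 progenitor markers summed to between 5113 and 5824 CPM with the empty vector and between 5431 and 7410 CPM with the fusion. The counts of Runx2 come from chromosome 17, positions 44496486 to 44814797 on the minus strand (mm10). Runx2os1 overlaps its exons over 519 bases on the opposite strand and had at most 5 counts in a library, and the strand setting of the counting is not given in the sources used here.

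Runx1, the most highly counted RUNX gene, showed little difference. It was at 336, 235 and 214 CPM in empty-vector cells, at 298, 270 and 235 CPM in fusion cells with sh#ctrl, and at 303, 280 and 314 CPM with shNizp1#1 and 337, 286 and 294 CPM with shNizp1#2. All groups overlapped, and its log2 fold change with the fusion was 0.04 (SE 0.11, adjusted p = 0.921 with the block). It was above the control shRNA in 3 of 3 pairs with either shRNA, with log2 fold changes of 0.17 (SE 0.11, adjusted p = 0.598) and 0.19 (SE 0.11, adjusted p = 0.552). With shNizp1#1 and the block, the value was 0.05 without shNizp1#1 replicate 3 and 0.29 without its replicate 1. These comparisons share the same control libraries. Gm26626, on the opposite strand, overlaps its exons over 106 bases and had 13 counts in all 12 libraries together.

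Runx3 kept within a narrow band, from 115 to 151 CPM over the 12 libraries. Its log2 fold change with the fusion was 0.16 (SE 0.08, higher in 3 of 3 pairs, adjusted p = 0.492 with the block), and it was not called against any other group. Cbfb was at 181, 134 and 126 CPM with the empty vector and 186, 164 and 196 CPM with the fusion. It was higher with the fusion in 3 of 3 pairs (log2 fold change 0.31, SE 0.11, adjusted p = 0.336 with the block). The groups overlapped, and the pair numbered 3 differed by 0.63 against 0.04 for the pair numbered 1 on the log2(CPM + 1) scale. With the shRNAs Cbfb ran from 138 to 190 CPM and was not called.

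As a share of the 3 RUNX genes per kilobase, Runx2 made up 1.19, 2.18 and 1.69% in empty-vector libraries and 3.86, 4.18 and 6.37% in libraries of the fusion with sh#ctrl. The mean shares were 1.69% ± 0.50 and 4.80% ± 1.36 (SD, n = 3), and the groups did not overlap (two-sided exact permutation p = 0.1, the smallest that 3 against 3 allows; adjusted p = 0.933 over 24 comparisons of RUNX and Id shares). It was 4.01% ± 1.76 with shNizp1#1 and 5.89% ± 1.90 with shNizp1#2, higher with shNizp1#2 in 3 of 3 pairs (exact permutation p = 0.3). The difference between the shRNAs was 0.915 percentage points without shNizp1#2 replicate 3 and 2.89 points without shNizp1#1 replicate 3. That of shNizp1#2 from the control shRNA was 0.118 points without shNizp1#2 replicate 3 and 2.02 points without its replicate 1. Runx1 held 52.7% in empty-vector cells and 49.3% in fusion cells, and Runx3 45.7% and 45.9%. The summed level of the family ranged from 57.3 to 75.8 CPM per kilobase with the empty vector and from 67.1 to 75.8 with the fusion, so the sums overlapped.

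**Figure D2:**
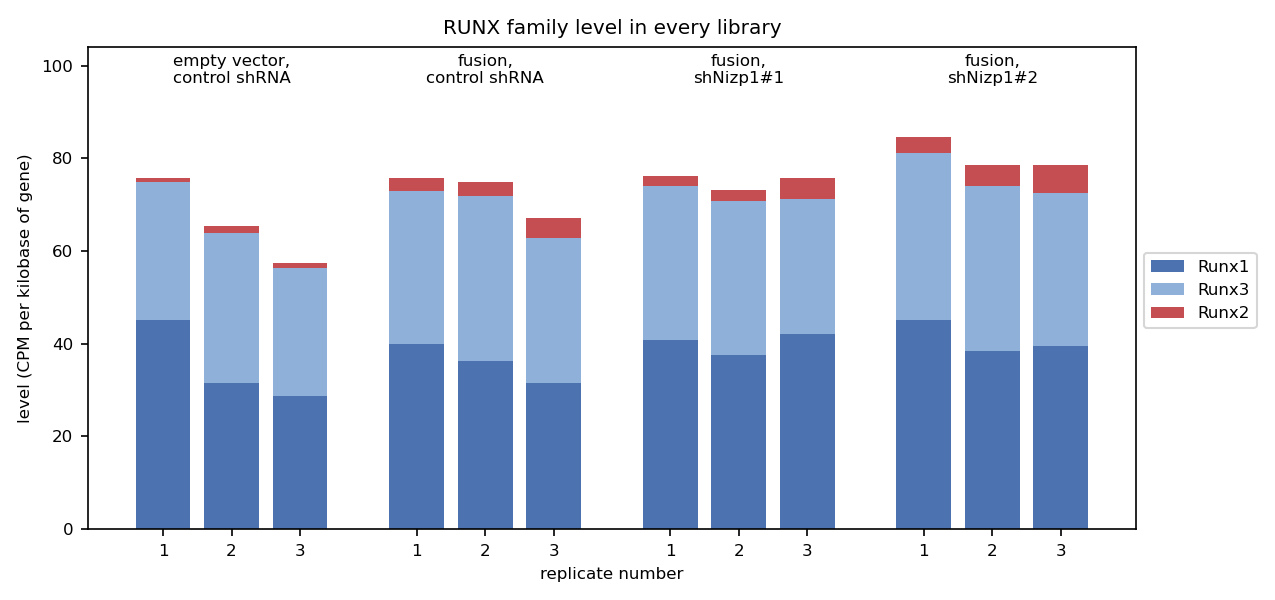
Stacked bars of the level of Runx1, Runx3 and Runx2 in CPM per kilobase of gene in each library, by group and replicate number (axis from 0). Runx1 and Runx3 make up nearly all of each bar, and the Runx2 segment is thinner in the 3 empty-vector libraries (1.19 to 2.18% of the bar) than in the fusion libraries with the control shRNA (3.86 to 6.37%).

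The Id genes followed the replicate number. Id1, which restrains differentiation and is induced by BMP signalling in many cells, was at 6.53, 20.1 and 0.652 CPM in empty-vector replicates 1, 2 and 3 and 3.28, 25.5 and 1.18 CPM with the fusion. With shNizp1#1 it was at 5.47, 18.1 and 1.39 CPM and with shNizp1#2 at 7.01, 29.4 and 1.32 CPM. Replicate 2 was highest and replicate 3 lowest in all 4 groups. Mean levels over the groups were 5.57, 23.3 and 1.13 CPM for numbers 1, 2 and 3. Given the group, the effect of the number passed an F test over all genes (adjusted p = 1.28e-07), and Id1 ranked 66 of 11994 genes by its F value.

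Id3 was lowest in replicate 3 and highest in replicate 2 of each group, though the ranges of numbers 1 and 2 overlapped. It was at 14.5, 21.6 and 0.434 CPM with the empty vector (the last being 2 counts) and 19.5, 29.3 and 6.08 CPM with the fusion, at 12.6, 18.7 and 4.58 CPM with shNizp1#1 and at 14.7, 31.2 and 2.64 CPM with shNizp1#2. The number was called for it too (adjusted p = 2.79e-04). Id2, the most highly expressed of the 10, ranged from 471 to 857 CPM, with replicate 3 lowest in all 4 groups (adjusted p of the number 0.00174). The number also passed the test for Erg (0.00118), Runx2 (0.00877), Cbfb (0.0175) and Runx1 (0.0367), but not for Runx3 (0.0965), Myb (0.272) or Myc (0.281). That is 7 of 10 genes, against 53.5% of all tested genes.

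Markers of mature myeloid cells moved with the replicate number as well. The 10 neutrophil markers summed to between 197 and 446 CPM in libraries numbered 1, 850.4 and 1627 CPM in those numbered 2 and 2.39 and 9.58 CPM in those numbered 3. The 10 monocyte and macrophage markers summed to between 859 and 1584, 2089 and 3754, and 94.7 and 1150 CPM. Every marker of both lists had a count in each group. The 13 mast cell markers summed to between 54515 and 68567 CPM in libraries numbered 1, 50440.0 and 62188 CPM in those numbered 2 and 42851 and 49095 CPM in those numbered 3, which were lowest in all 4 groups. The 12 progenitor markers were highest in number 3 in all 4 groups (5824 to 7727 CPM, against 4882 to 6169 CPM in the other numbers), as was Runx2 in the 3 groups with the fusion. The part of these cells in the levels of the Id genes and Runx2 was not tested.

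**Figure D3:**
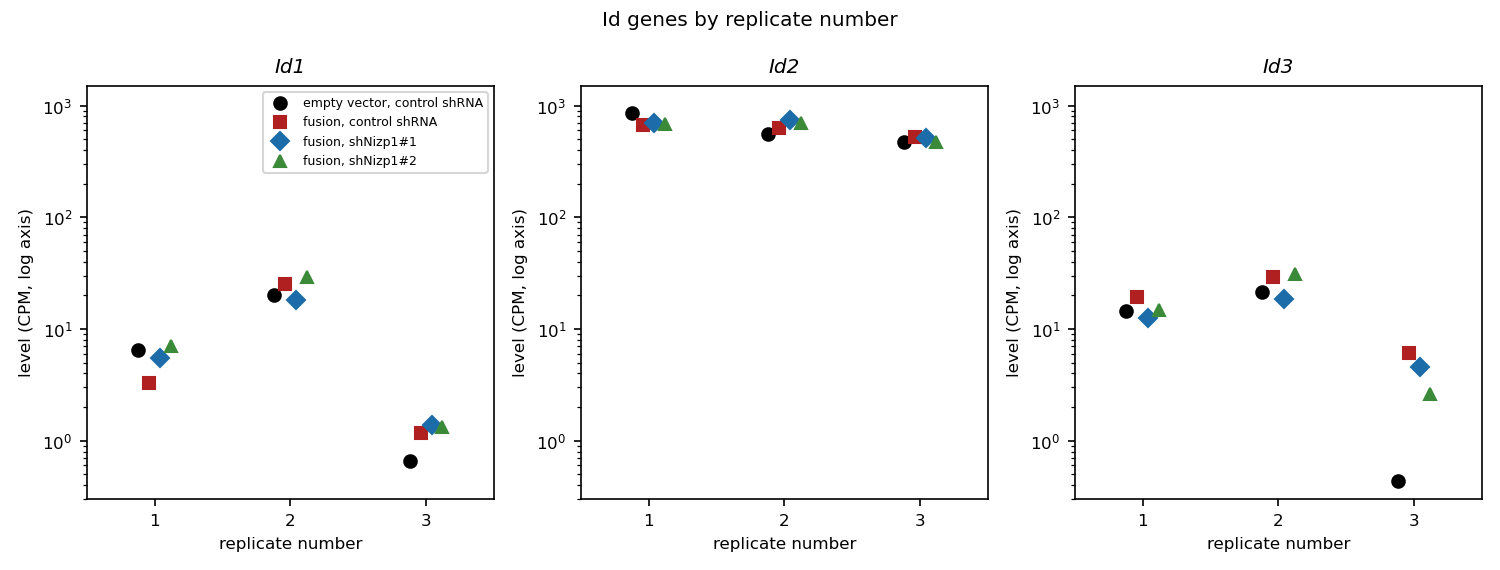
Level of Id1, Id2 and Id3 in CPM (log axis) against the replicate number, 1 point per library, with a symbol for each group. For Id1 all libraries numbered 2 (18.1 to 29.4 CPM) stand above all others and all numbered 3 (0.652 to 1.39 CPM) below.

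Between groups, no Id gene passed the test. Id3 had a log2 fold change of 0.76 with the fusion (SE 0.38, higher in 3 of 3 pairs, adjusted p = 0.491 with the block), and the pair numbered 3, where the empty-vector library held 2 counts, gave 2.30 on the log2(CPM + 1) scale against 0.41 and 0.42 for the others. It was below the control shRNA in 3 of 3 pairs with shNizp1#1 (log2 fold change −0.55, SE 0.38, adjusted p = 0.629), and lower in 2 of 3 with shNizp1#2 (−0.35, SE 0.36, adjusted p = 0.772). Id1 was higher with shNizp1#2 than with the control shRNA in 3 of 3 pairs (0.42, SE 0.28, adjusted p = 0.609) and near 0 with the fusion (−0.02, SE 0.29). Without the block the SEs of Id1 were between 1.44 and 1.47, so that group differences under several-fold were not detectable in that fit. Id2 lay within 0.1 log2 units of 0 in all 4 comparisons with the block (SE 0.12 in each).

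Myb had opposite signs under the shRNAs. It was at 85.6, 123 and 102 CPM with the empty vector and 123, 143 and 142 CPM in fusion cells with sh#ctrl. That was higher in 3 of 3 pairs (log2 fold change 0.40, SE 0.14, adjusted p = 0.321 with the block). Across 11 fits with the block, Myb was called with the fusion in 2. The adjusted p in these fits lay between 0.0299, without empty-vector replicate 2, and 0.9989. In 12 alternatives without the block Myb was called in 0 (lowest adjusted p = 0.9987). With shNizp1#1 it was at 150, 143 and 166 CPM, above every control shRNA library, as for 3.96% of tested genes (log2 fold change 0.17, SE 0.13, adjusted p = 0.675). The pair numbered 2 was nearly tied, at 143.5 against 143.1 CPM (0.003 on the log2(CPM + 1) scale), and the absence of overlap rests on it. With shNizp1#2 Myb was at 109, 88.9 and 131 CPM, below the control shRNA in 3 of 3 pairs (−0.31, SE 0.13, adjusted p = 0.418). Without shNizp1#2 replicate 2 that value was −0.14 with the block (adjusted p = 0.941). Neither difference from the control shRNA passed the test.

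Set directly against each other, all shNizp1#2 libraries lay below all shNizp1#1 libraries for Myb, as for 4.34% of tested genes in that direction. The log2 fold change was −0.49 (SE 0.13), and it did not pass the test with the block (adjusted p = 0.0832) or without it (0.742). Over 11 fits with the block the adjusted p lay between 0.00233 and 0.338, and Myb was called in 2, with DESeq2 (0.0352) and without the filter on low counts (0.00233). Myb passed the test with the block in the added comparison of shNizp1#1 with the empty vector (log2 fold change 0.57, SE 0.14, adjusted p = 0.0382), but not with shNizp1#2 (0.08, adjusted p = 0.780). Gm26577, on the opposite strand, overlaps its exons over 491 bases and had at most 20 counts in a library.

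Erg was at 84.9, 88.6 and 65.2 CPM with the empty vector and 83.0, 81.8 and 66.1 CPM with the fusion, a log2 fold change of −0.04 (SE 0.11). With shNizp1#1 it was at 122, 113 and 78.9 CPM, higher than the control shRNA in 3 of 3 pairs, and with shNizp1#2 at 106, 77.8 and 65.3 CPM. In every group the library numbered 3 was lowest. The log2 fold change with shNizp1#1 was 0.42 (SE 0.11) and missed the threshold with the block (adjusted p = 0.0683) and without it (0.9999). Over 11 fits with the block the adjusted p ranged from 0.0304, without the filter on low counts, to 0.301. Between the shRNAs Erg was lower with shNizp1#2 in 3 of 3 pairs (−0.33, SE 0.10, adjusted p = 0.128).

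Myc was the steadiest. Its level ran from 94.3 to 107 CPM with the empty vector, 105 to 116 with the fusion, 100.5 to 117 with shNizp1#1 and 106 to 111 with shNizp1#2. The log2 fold change with the fusion was 0.14 (SE 0.08, higher in 3 of 3 pairs, adjusted p = 0.577 with the block), and it lay within 0.05 of 0 in the other 3 comparisons.

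**Figure D4:**
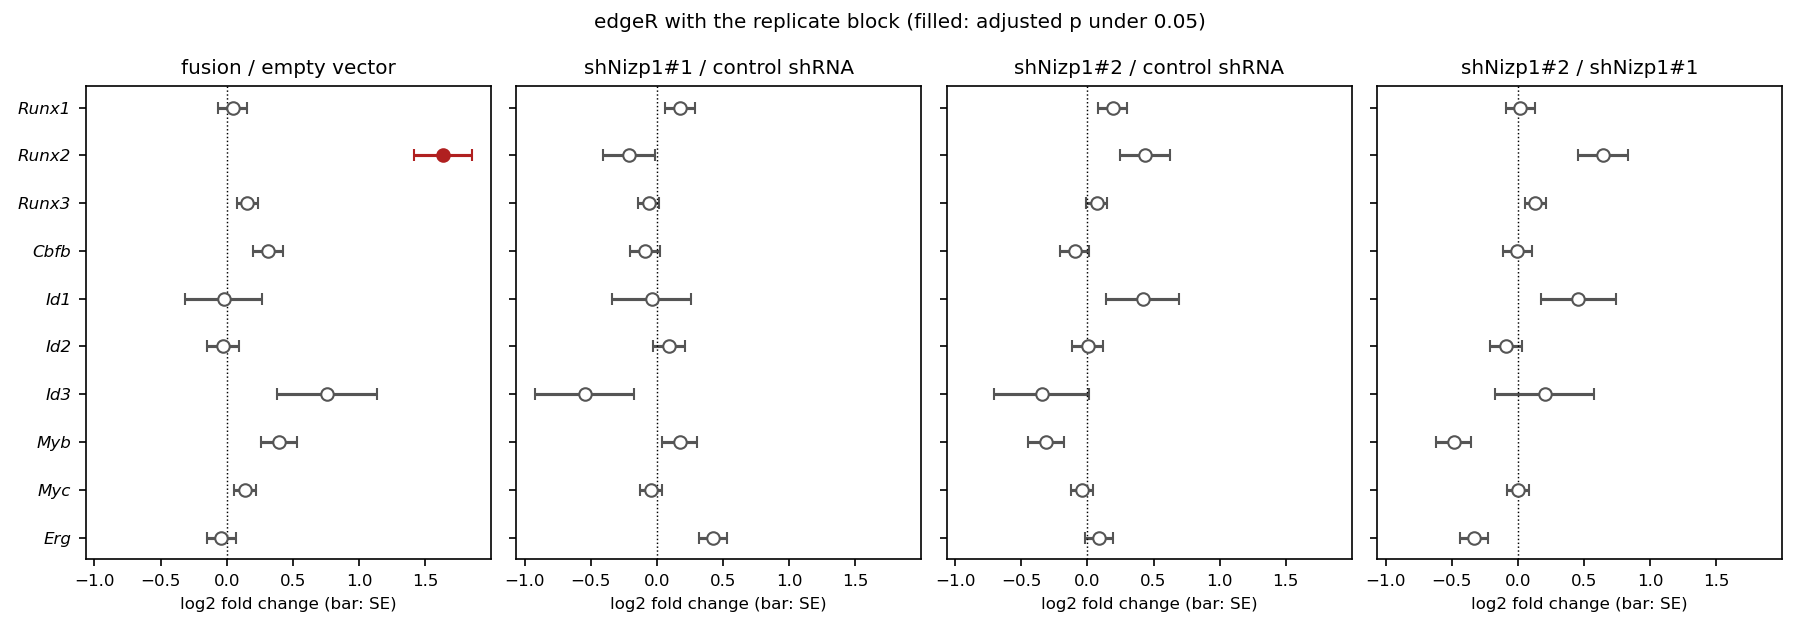
Log2 fold change of the 10 genes in each of the 4 comparisons from edgeR with the replicate number as a block, with bars for the SE and filled points for adjusted p under 0.05. The single filled point is Runx2 with the fusion, at 1.64.

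Across the 10 genes, none was called by edgeR without the block in any of the 4 comparisons (DESeq2 without the block called Runx2 with the fusion), where 0.00834% of tested genes were called higher with the fusion, 0% with shNizp1#1 in either direction, 0.00834% lower with shNizp1#2 and 0.00834% lower between the shRNAs. At an unadjusted p under 0.05, edgeR without the block found 320, 480, 285 and 609 of all tested genes in these comparisons. With the block, 1 of 10 was called higher with the fusion, against 0.25% of tested genes, and none lower, against 0.025%. With shNizp1#1 none was called, against 0.509% higher and 1.12% lower, and none with shNizp1#2, against 0.142% and 0.075%. Between the shRNAs none was called, against 1.78% and 0.584%. Unadjusted p-values under 0.05 numbered 1319, 1479, 1331 and 1779 with the block. The levels of 1 gene, Runx2, did not overlap between the fusion and the empty vector on the higher side (3.68% of tested genes) and of none on the lower side (3.74%). With shNizp1#1 it was 1 higher (Myb, 3.96%) and none lower (4.42%), with shNizp1#2 none higher (3.48%) or lower (3.04%), and between the shRNAs none higher (4.87%) and 1 lower (Myb, 4.34%). In sign, 6 of 10 genes were higher with the fusion in 3 of 3 pairs (15.9% of tested genes) and none lower (16.3%). With shNizp1#1 there were 3 higher (17.2%) and 1 lower (18.1%), with shNizp1#2 there were 4 higher (20.0%) and 1 lower (19.1%), and between the shRNAs 2 higher (22.2%) and 3 lower (20.6%). The median log2 fold change over the 10 with the block was 0.15 with the fusion, −0.04 with shNizp1#1, 0.04 with shNizp1#2 and 0.01 between the shRNAs, and that over all tested genes lay within 0.01 of 0 in each.

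Genes that work with the 10 were read from lists of partners, pathways and targets. Of the RUNX cofactors, corepressors and coactivators such as Tle3, Hdac3, Ep300 and Kat6a, 18 of 19 were in the table and tested, and none was called in any comparison with or without the block. Of the E proteins and their complex, partners of Id proteins and of Tal1, 10 of 12 were tested. Lmo4, a LIM-only adaptor, fell with shNizp1#2 relative to shNizp1#1 (98.3 to 73.9 CPM, log2 fold change −0.42, SE 0.10, adjusted p = 0.0487 with the block), and no other was called. Of the BMP, TGF-β and SMAD pathway, which controls Id genes, 20 of 27 were tested. Smad5, a BMP signal carrier, was the single call, higher with shNizp1#2 than with shNizp1#1 (56.3 to 78.9 CPM, 0.47, SE 0.11, adjusted p = 0.0324 with the block). Between the shRNAs, 1.78% of all tested genes were called higher and 0.584% lower with the block.

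In the MYC network, 17 of 18 were tested and Mlxip, which pairs with Mlx and senses glucose, was the single call, higher with shNizp1#2 than with shNizp1#1 (75.1 to 105 CPM, 0.49, SE 0.10, adjusted p = 0.0164 with the block). None of these calls between the shRNAs was made without the block, and with it 1.78% of all tested genes were called higher. All 27 MYC target genes, mostly of ribosome production and metabolism, were tested and none was called. Of these, 19 had a log2 fold change above 0 with the fusion (median 0.08), 4 with shNizp1#1 (median −0.18) and 1 with shNizp1#2 (median −0.22), against 49.8%, 49.3% and 49.7% of all tested genes. Named after their values were seen, the 4 were Eif4e, Pa2g4, Ppan and Bop1, all under 0.1, and the 1 was Odc1 at 0.03. The knockdown comparisons share the control libraries, and 23 of the 27 differed by replicate number, against 53.5% of all tested genes.

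Of the MYB family and MYB-linked genes, 10 of 11 were tested. Bcl2, which blocks cell death, was called with the block and not without it. It was at 115, 132 and 87.9 CPM with the control shRNA, 106, 114 and 99.6 CPM with shNizp1#1 and 171, 194 and 139 CPM with shNizp1#2. It rose with shNizp1#2 over the control shRNA (0.59, SE 0.10, adjusted p = 0.0241) and over shNizp1#1 (0.65, SE 0.10, adjusted p = 0.00358), while Myb was lowest with shNizp1#2 among the fusion groups. Called higher in these comparisons with the block were 0.142% and 1.78% of all tested genes. Of the ETS factors, the family of Erg, 15 of 16 were tested, and of the RUNX1 target genes of myeloid and mast cells 16 of 18, with none called in either list.

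Of the leukaemia and stem cell factors, 19 of 21 were tested and 2 were called higher with the fusion, with the block only, against 0.25% of all tested genes. Hoxa9, a self-renewal factor, was read 1, 3 and 1 times in the empty vector's replicates and reached 18.8, 11.0 and 62.8 CPM in those of the fusion with the control shRNA (adjusted p = 2.42e-04). Bcl11a, a zinc finger repressor, went from 1.81 to 9.18 CPM (log2 fold change 2.28, SE 0.39, adjusted p = 0.0267). Like Runx2, both were highest in the fusion library numbered 3.

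The genes most like each member across the 12 libraries were found after subtracting the mean of each replicate number, by Pearson's r of log2(CPM + 1) among 10176 genes with a mean of at least 5 CPM. These values describe libraries that share groups, and carry no test. Runx2 was closest to Cep85l (r = 0.97) and Serpinb9 (0.96), Runx1 to Pld4 (0.96), Runx3 to Narf (0.94) and Stap1 (0.93), and Cbfb to Mbnl2 (0.96) and Cnot7 (0.96). Id1 was closest to Itsn1 (0.95) and Per1 (0.91), Id2 to Fxr1 (0.92) and H3f3b (0.92), and Id3 to Arglu1 (0.95) and Prodh (0.95). Myb was closest to Zfp146 (0.97) and Sgsm3 (0.96), Myc to Mtdh (0.90) and Morc3 (0.90), and Erg to Susd1 (0.95) and Slc48a1 (0.92). Among the 10 themselves, Cbfb and Id3 (0.90) and Runx2 and Runx3 (0.87) were most alike on this scale. Before the subtraction, Id1 and Id3 were the closest pair (0.87), and after it their r was 0.38.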

How the data were processed

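The members and gene lists were chosen with earlier results of these data known. Per the labels' protocols, 1 µg of RNA gave stranded poly(A) libraries read as single 75 nt reads. Per the submitters' processing notes, the authors used Trimmomatic 0.32, STAR 2.5.3a (mm10) and featureCounts. For featureCounts no version, annotation or strand setting is given in the sources used here, so reads of overlapping antisense genes may not have been told apart. The deposited values are whole-number counts per gene, with a deposited column of gene length in bases that was used for levels per kilobase. Of 55376 genes, 31694 had no count in any library, and 11994 passed filterByExpr on the group design.

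The main test was edgeR 4.0.16 (R 4.3.3): robust quasi-likelihood, TMM, 1 mean per group over 12 libraries, Benjamini-Hochberg over all tested genes, threshold 0.05. SEs come from the F statistic. The scripts were tested on simulated data. Replicate numbers come from the labels. Deviations from group means, of log2(CPM + 1), correlated in all 18 same-numbered pairs (median r 0.74, lowest 0.22, highest 0.88). For 36 pairs of other numbers the median r was −0.20, and all 12 libraries correlated best with their own number. The numbers were therefore taken to pair the samples, as the series speaks of independent experiments. The main test and the exact permutation of shares take no account of this pairing. For edgeR, blocked values stand beside the unblocked ones. No replicates agreed within sampling noise. No animals are named, so a p-value measures only how these libraries vary, which may be technical. Reads carry no molecular identifiers, so 3-count floors cover counting error only.

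Named were the 10 genes, Zkscan17 and Nsd1, up to 4 called members of each list, and the 2 genes most like each member (1 gene that met this rule is not reported here). Of 19 RUNX cofactor symbols, Tle5 is an alternative name of Aes and only Aes is in the table. Alternatives were RLE and upper-quartile scaling, no filter, DESeq2 1.42.0, limma-voom 3.58.1, the compared groups alone, leaving out each library, and the block with RLE, no filter, DESeq2 or without libraries numbered 3. Sequences are from RefSeq's table of start regions, which held 8 of the 10 genes.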

Additional observations from a re-analysis of the deposited data

Results flagged for a closer look

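Each of these results differed between the 2 shRNAs against Nizp1, as a log2 fold change of shNizp1#2 minus shNizp1#1 with the replicate number as a block, in edgeR. Myb was higher than the control shRNA in 3 of 3 pairs with shNizp1#1 and lower in 3 of 3 with shNizp1#2, and the difference between them of −0.49 did not pass the test (adjusted p = 0.0832). With shNizp1#1 the pair numbered 2 was nearly tied, at 143.5 against 143.1 CPM. Lmo4 differed by −0.42 (adjusted p = 0.0487), Smad5 by 0.47 (adjusted p = 0.0324), Mlxip by 0.49 (adjusted p = 0.0164) and Bcl2 by 0.65 (adjusted p = 0.00358), each in the same direction in 3 of 3 pairs. Without the block none of the 5 passed (adjusted p between 0.437 and 0.9999). Groups of 3 libraries were not searched for outlying samples.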

How the results depend on the processing

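Values are from edgeR without the block unless another fit is named, ranges from leaving out 1 library span the fits with and without the block together, and comparisons come in the order fusion against empty vector, shNizp1#1 against control shRNA, shNizp1#2 against control shRNA, and shNizp1#2 against shNizp1#1. Depth limits Id1, Id3 and Runx2 most, which had the lowest levels. Where a cause is not evident from the construction of an alternative, it was not tested.

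The number of genes called depended on the test. Without the block, genes called higher numbered 1, 0, 0 and 0, and genes called lower 0, 0, 1 and 1. With the replicate block they were 30, 61, 17 and 214 higher and 3, 134, 9 and 70 lower. The block with RLE scaling gave 30, 58, 17 and 226 higher and 2, 138, 11 and 74 lower. The block without the filter on low counts gave 280.0, 222, 256 and 437 higher and 171, 290.0, 113 and 189 lower. The block with DESeq2 gave 60, 71, 41 and 262 higher and 16, 170.0, 29 and 97 lower. The block without all libraries numbered 3 gave 2, 2 and 10 higher (fusion, shNizp1#1, between the shRNAs) and 9, 4 and 2 lower (shNizp1#1, shNizp1#2, between the shRNAs). DESeq2 gave 8, 5, 2 and 62 higher and 34, 5 and 15 lower in the last 3 comparisons. Without the filter, 1 gene was called higher between the shRNAs, 1 lower with shNizp1#1 and 2 lower with shNizp1#2. With the compared groups alone, 0 were called higher with the fusion, 0 lower with shNizp1#2 and 0 lower between the shRNAs. Leaving out 1 library, with or without the block, gave between 1 and 80 genes higher with the fusion (80 without empty-vector replicate 1, with the block) and between 0 and 94 lower (94 without empty-vector replicate 2, with the block). The same gave 0 to 26 higher and 0 to 66 lower with shNizp1#1, 0 to 4 higher and 0 to 5 lower with shNizp1#2, and 0 to 117 higher and 0 to 27 lower between the shRNAs.

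Of the 10 genes, edgeR without the block called 0. With the fusion, 1 was called under the block, the block with RLE scaling, the block with DESeq2 and DESeq2 without the block (Runx2), and 3 (Runx2, Id3 and Myb) under the block without the filter. Leaving out 1 library gave 0 to 2, the latter being Runx2 and Myb without empty-vector replicate 2, with the block, while fits without the block called 0. With shNizp1#1, 1 was called under the block without the filter (Erg). Between the shRNAs, 1 was called under the block with DESeq2 (Myb) and 2 under the block without the filter (Myb and Runx2). The median log2 fold change of the 10 genes lay between −0.087 and 0.062 with shNizp1#1, −0.053 and 0.19 with shNizp1#2, and −0.11 and 0.094 between the shRNAs when 1 library was left out.

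The fold changes of Runx2 with the fusion, Myb with the fusion and between the shRNAs, and Erg with shNizp1#1 kept their sign under every alternative. Signs changed for small differences. Id1 with the fusion, 0.15 without the block, was −0.023 under the replicate block, −0.015 under the block with RLE scaling, −0.026 under the block without the filter, −0.037 under the block with DESeq2 and −0.078 under the block without libraries numbered 3. Id1 with shNizp1#1 was 0.022 under the block with DESeq2. Cbfb between the shRNAs was 0.00126 under the block with RLE scaling, 0.00109 under the block with DESeq2 and 0.035 under the block without libraries numbered 3. Myc between the shRNAs was −0.018 with upper-quartile scaling and −0.010 with the compared groups alone, and Myc with shNizp1#2 was 0.00938 under the block without libraries numbered 3.

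Leaving out 1 library gave these ranges of log2 fold change in which a sign changed. For Id1 they were −2.02 to 1.47 with the fusion, −1.59 to 1.87 with shNizp1#1, −1.29 to 2.49 with shNizp1#2 and −1.01 to 1.91 between the shRNAs, each end without a library numbered 2. For Id2 they were −0.22 to 0.23, −0.0084 to 0.25, −0.084 to 0.17 and −0.23 to 0.073 in the 4 comparisons. For Id3 they were −1.09 to 0.34 with shNizp1#2 and −0.48 to 0.96 between the shRNAs. For Cbfb they were −0.17 to 0.052, −0.17 to 0.018 and −0.14 to 0.085 in the last 3 comparisons. For Erg they were −0.17 to 0.049 with the fusion and −0.094 to 0.25 with shNizp1#2. For Myc they were −0.085 to 0.000235 with shNizp1#1 and −0.045 to 0.050 between the shRNAs. For Runx1 they were −0.095 to 0.25 with the fusion and −0.089 to 0.15 between the shRNAs. For Runx2 with shNizp1#1 it was −0.63 to 0.038. No Id gene was called in any of these, with or without the block.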
